A study of Bos taurus with 2 samples.

Results

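The genes of the proteasome were followed across the 15 clusters of cultured bovine satellite cells. They were taken by name, as every gene whose symbol starts with PSM, a letter from A to G and a number. Of the 21867 genes listed for the bovine genome, 49 had such a symbol, and 48 of them were among the 16816 genes with at least 1 unique molecular identifier (UMI), the tag that marks 1 captured RNA molecule. The 48 genes comprised 7 alpha and 7 constitutive beta genes of the 20S core, 3 inducible beta genes, 9 base and 8 lid genes of the 19S regulatory particle, 4 activator genes, 7 assembly chaperone genes, the inhibitor gene PSMF1 and PSMA8, which encodes a testis form of an alpha subunit. The remaining gene, PSMC3IP, encodes a cofactor of meiotic recombination and no part of the proteasome. It stays in the counts over all genes of the list, which are also given without it where they differ. PSMB11, the thymus form of a beta subunit, had no UMI in either library, which allows a level of up to 0.000106 UMIs per 10000 UMIs (3 UMIs over both libraries, counting error only).

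The cells came from the longissimus muscle of 1 male Holstein calf aged 2 weeks. They were released with pronase and kept for 1 week in DMEM with 10% fetal bovine serum, and no treatment or genotype differed among them. From these cells 2 libraries, called replicates 1 and 2 here, were made with the 10x Genomics 3′ kit, version 3. Both libraries held cells of the same culture, so each p-value below refers to the spread between library preparations and their sequencing. Variation from animal to animal was not sampled. The deposited counts sum to 145631299 UMIs in 9939 cells of replicate 1 and to 137818568 UMIs in 9157 cells of replicate 2, and 27 cell barcodes occurred in both.

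The proteasome is the large protease that degrades proteins tagged with ubiquitin. In its barrel-shaped 20S core, outer rings of alpha subunits control entry and inner rings of beta subunits hold the active sites, which belong to PSMB5, PSMB6 and PSMB7. The 19S regulatory particle sits on the ends of the barrel, where its lid removes ubiquitin and the ATPases of its base unfold the substrate. In the immunoproteasome, which interferon induces and which cuts peptides for antigen presentation, PSMB8, PSMB9 and PSMB10 replace the catalytic beta subunits, and the PA28 activators PSME1 and PSME2 can cap the core in place of the 19S particle. In muscle, proteasomes remove myogenic regulators and sarcomere proteins, the latter after tagging by muscle ubiquitin ligases.

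A level is given here as UMIs of a gene per 10000 UMIs of the same cells, as mean ± SD of the 2 libraries. The deposited cluster averages are these levels for both libraries pooled, times a common factor of 1.49. Tags are counted at the 3′ end of transcripts, so a level does not scale with transcript length. The study characterized clusters 5 and 8 as PAX3-enriched satellite cells and cluster 4 as satellite cells by its PAX7. It characterized clusters 1, 2, 3 and 12 as myoblasts, with MYOG in clusters 3 and 12. Clusters 7 and 9 were both called fibro-adipogenic progenitors (FAP). MYOG was at 18.6 UMIs per 10000 in cluster 12 and 6.68 in cluster 3, above all other clusters, and PDGFRA, a FAP marker, at 1.58 in cluster 9 and 1.48 in cluster 7. The 2 FAP clusters were unlike in other markers. The myocyte genes MYOG, MYH3, MYMK and MYL1 summed to 7.24 in cluster 7 and 0.420 in cluster 9. MYOD1 was at 2.46 and 0.571, and 10 genes of the G2/M phase summed to 40.9 and 21.0. PAX3 was at 0.0280 in cluster 8 and 0.0214 in cluster 5, its highest levels and still near the limit of detection. PAX7 was at 0.0112 in cluster 4, 0.0103 in cluster 11 and 0.0101 in cluster 8, so it hardly set cluster 4 apart. MYF5 did not separate cluster 1 (1.55) from cluster 8 (1.57), while MYOD1 was at 5.18 in cluster 1 and 0.892 in cluster 8. Markers of leukocytes, which carry immunoproteasomes, summed to 0 to 0.209 UMIs per 10000 over 9 genes, with the highest sum in cluster 7. Of these 9 genes, PTPRC and CD74 were at 0 or below 0.001 in every cluster and CD79A had no UMI. In all clusters, 4 endothelial genes summed to at most 0.0276, 3 pericyte genes to 0.0717 to 1.71, and 2 smooth muscle genes, which myogenic cells also express, to 3.23 to 9.13.

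In the culture as a whole, subunits of the same particle were far from equal in UMIs. Levels were not corrected for differences between genes in capture or mapping, so a span between genes need not equal a span in mRNA. PSMA7 (ENSBTAG00000005127), an alpha subunit, had the highest level of the 48 genes, at 11.5 and 10.9 UMIs per 10000 in replicates 1 and 2, and a UMI in 95.2% of the cells. The lowest of the 14 core genes was PSMA3 at 0.797 ± 0.0247 UMIs per 10000 (SD, n = 2), so the core genes spanned 14.1-fold although each core holds the same number of each subunit. The 17 genes of the 19S particle spanned 9.37-fold, from PSMD4, a ubiquitin receptor of the base, at 0.738 ± 0.156 to PSMD8 of the lid at 6.92 ± 0.139. PSMD4 also had the largest ratio between the libraries among the genes named here, with 0.628 in replicate 1 and 0.849 in replicate 2.

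The alternative catalytic subunits had few UMIs beside the constitutive ones. PSMB5, PSMB6 and PSMB7 were at 5.02, 2.71 and 2.31 UMIs per 10000, against 0.270 for PSMB8, 0.0476 for PSMB9 and 0.197 for PSMB10. PSMB9 had a UMI in 6.27% of the cells and PSMB8 in 28.4%. The activators had levels of 1.81 (PSME1), 0.820 (PSME2), 0.870 (PSME3) and 0.312 (PSME4), and the chaperones ran from 0.261 (PSMD10) to 2.08 (PSMG4). PSMA8 had 8 UMIs in all cells together.

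The clusters differed in depth. Of the 15 clusters, 10 had a median of at least 10000 UMIs per cell, from 12929 in cluster 1 to 23011 in cluster 9, and these are called the deeper clusters. In clusters 7, 10, 13, 14 and 15 the medians were 1389, 5398.5, 1631, 2513.5 and 647 UMIs per cell. The tests below compare deeper clusters with each other, and the shallow clusters are described apart.

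**Figure D1:**
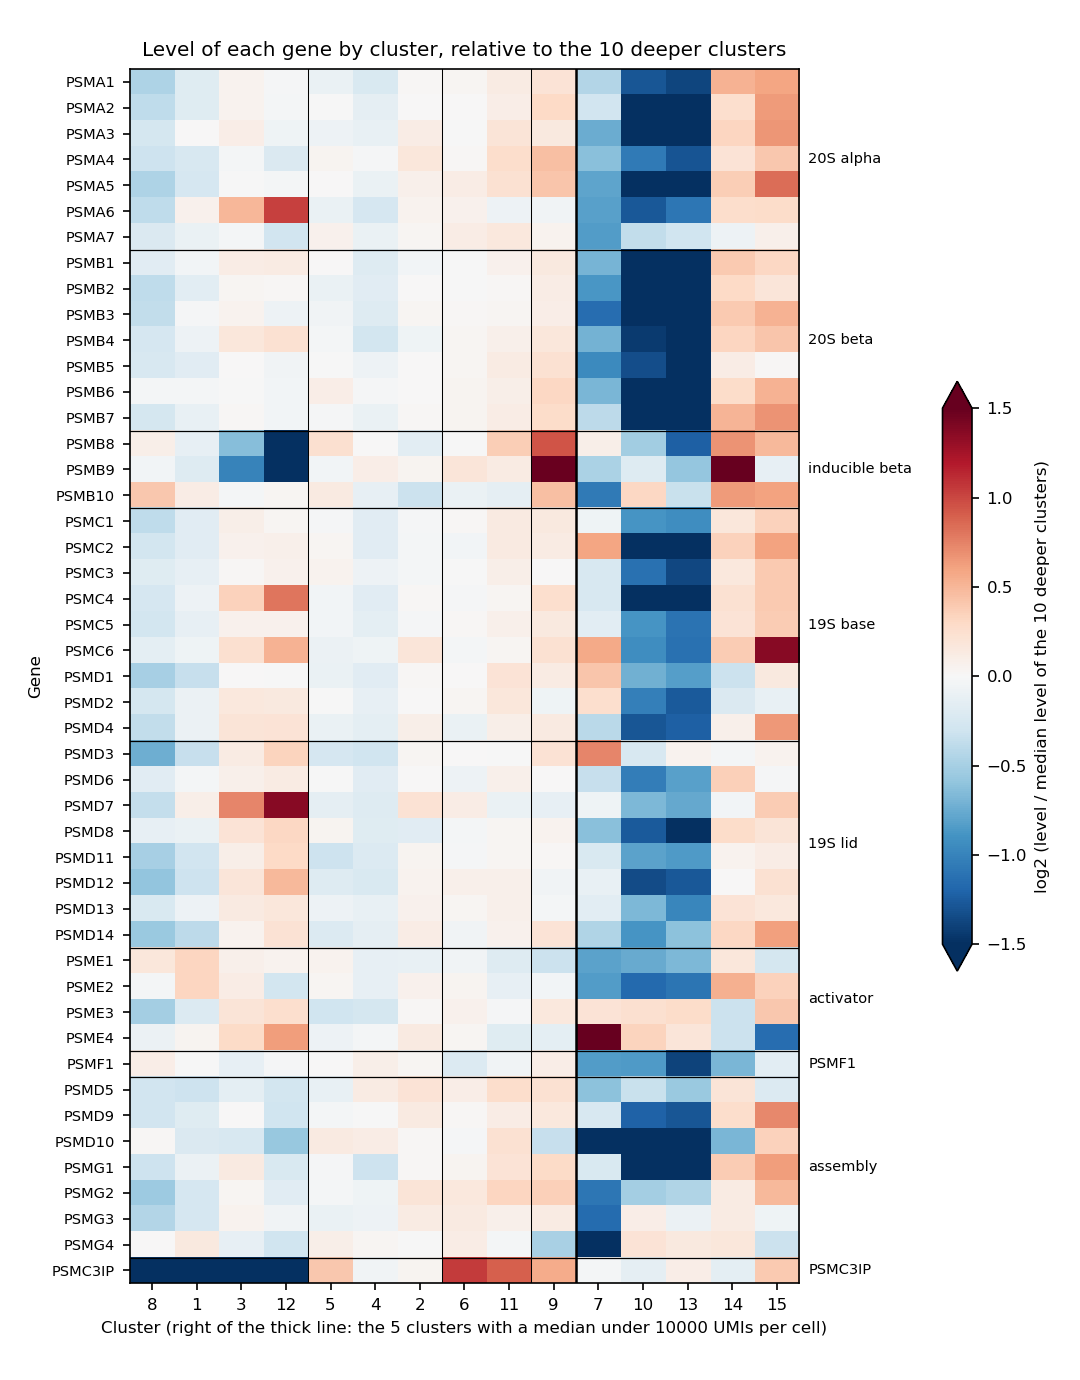
Level of 47 genes (rows, grouped by role) in each of the 15 clusters (columns), as log2 of the mean level of 2 libraries over the median level of the 10 deeper clusters. Blue is below and red above that median, the colours end at 1.5 in either direction, and clusters 10 and 13 are blue over most of the core and 19S genes while PSMD7, PSMA6 and PSMC4 are red in clusters 3 and 12.

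Across the deeper clusters the core and 19S genes had a common low point and different high points, as the map of levels by cluster shows. Summed over the 14 core genes, the level was 40.1 ± 0.447 UMIs per 10000 (SD, n = 2) in cluster 8, the lowest, and 54.9 ± 1.49 in cluster 9, the highest. The sum over the 17 genes of the 19S particle was lowest in cluster 8 too, at 33.4 ± 0.302, and highest in cluster 12, at 55.6 ± 0.213. Cluster 8, the PAX3-enriched start of the trajectories drawn by the study, was the lowest of the 10 clusters for 16 of the 17 genes of the 19S particle and for 10 of the 14 core genes. The highest cluster was cluster 12 for 11 of the 17 genes of the 19S particle, and cluster 9 for 10 of the 14 core genes and all 3 inducible genes. How often each cluster was lowest or highest over all genes was not computed, so these counts have no background beside them.

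The high 19S sums of clusters 3 and 12 lay mostly in the lid, and PSMD7 carried a large part of the lid sums. It did not carry most of the rise from cluster 1 to cluster 3. There the lid sum went from 20.4 to 27.4 UMIs per 10000, and without PSMD7 from 15.2 to 19.2. From cluster 3 to cluster 12 PSMD7 did carry most of the rise. In that step the lid sum went from 27.4 to 34.0, and without PSMD7 from 19.2 to 21.3. The 8 lid genes summed to 34.4 and 33.7 UMIs per 10000 in the libraries of cluster 12 and to 27.7 and 27.1 in those of cluster 3, while the other deeper clusters had means from 17.7 to 22.6. PSMD7 alone gave 12.7 of the 34.0 in cluster 12 and 8.20 of the 27.4 in cluster 3. Without it, the other 7 lid genes summed to 21.3 ± 0.412 in cluster 12 and 19.2 ± 0.244 in cluster 3, against 13.9 to 17.9 in the other deeper clusters. The base genes summed to 21.6 ± 0.261 in cluster 12 and 20.8 ± 0.230 in cluster 3, close to the 21.2 ± 0.135 of cluster 11. For each 100 UMIs of the core there were 112 and 116 UMIs of the 19S particle in the libraries of cluster 12 and 94.9 and 96.6 in those of cluster 3. In the other deeper clusters the mean ratio was between 78.7 (cluster 9) and 86.1 (cluster 2), so the libraries of clusters 12 and 3 stood above those of the other 8. With PSMD7 left out the ratio was 87.8 ± 1.97 in cluster 12 and 79.5 ± 1.27 in cluster 3, against 70.5 to 74.8 in the other 8. No test was run on the sums and ratios.

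**Figure D2:**
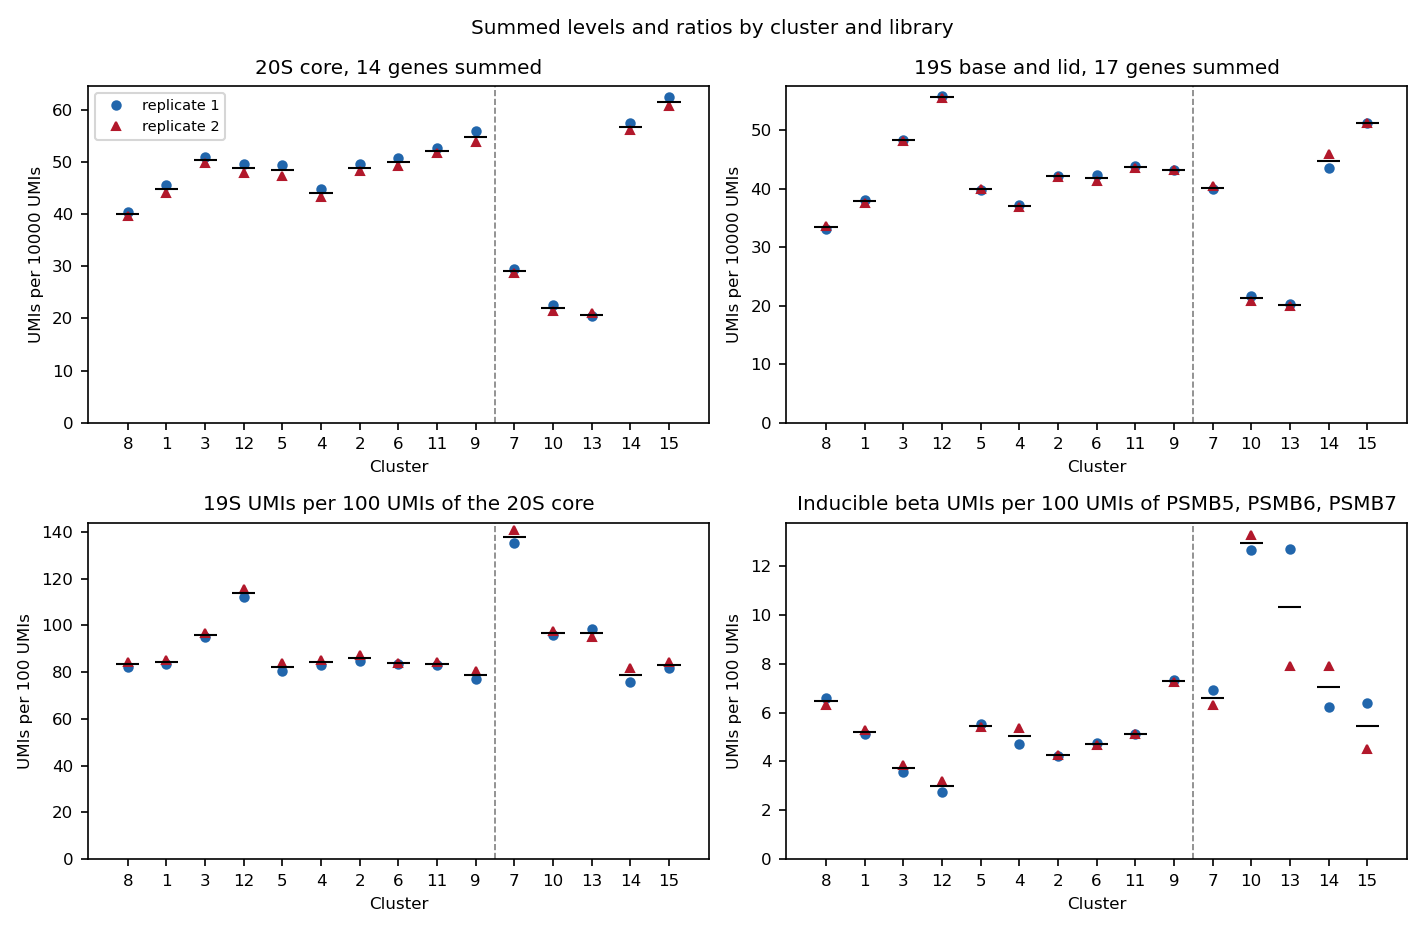
Summed levels of the 14 genes of the 20S core and the 17 genes of the 19S particle (upper panels, UMIs per 10000 UMIs) and 2 ratios of UMIs (lower panels) in each cluster. Circles are replicate 1, triangles replicate 2 and black bars their mean, and clusters right of the dashed line have a median under 10000 UMIs per cell. Among the deeper clusters the 19S particle is highest in cluster 12, at 114 UMIs per 100 UMIs of the core, and it is at 138 in shallow cluster 7.

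Genes also differed in how much they varied. Between the lowest and the highest deeper cluster, the median core gene changed 1.40-fold and the median gene of the 19S particle 1.49-fold. The range over all genes was not computed. PSMD7 of the lid (3.29-fold), the core gene PSMA6 (2.64-fold), PSMD12 (2.13-fold), PSMC4, an ATPase of the base (2.09-fold), and PSMD3 (2.08-fold) had the widest ranges among them. PSMB9 (15.2-fold) and PSMB8 (5.70-fold) varied more than any gene of the core or the 19S particle, whereas PSMB10 spanned 1.70-fold. As a description over the 10 deeper clusters, Pearson's r of log2 levels had a median of 0.763 over the 91 pairs of core genes, 0.799 over the 136 pairs of 19S genes and 0.679 between core and 19S genes. Between the 5 genes PSMB8, PSMB9, PSMB10, PSME1 and PSME2 and the core it was -0.123. Over all 15 clusters these medians were 0.958, 0.855, 0.867 and 0.542, and the clusters share libraries and differ in depth.

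For the tests, the UMIs of a cluster's cells were added up within each library. Clusters were compared as 2 sums against 2 with edgeR's quasi-likelihood test and Benjamini-Hochberg adjustment over all genes tested. These tests left the libraries unpaired, although each library lies on both sides. Fits with the library as a block are given as an alternative. Calls were made at an adjusted p below 0.05. Of the 48 genes, 47 passed the filter on low counts in each of the 7 comparisons, and PSMA8 did not. The clusters had been made on the same counts, so a call describes a difference beyond the spread between the library preparations. The 7 comparisons share clusters and are not independent of each other.

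The first comparison asked what differs between the satellite cells of cluster 8 and the myoblasts of cluster 1. Proteasome genes were higher in cluster 1 throughout the particle. Of the 47 genes, 29 were called higher in cluster 1 and 0 lower, where 17.2% of all 11194 genes tested were called higher and 16.9% lower. The calls took in 11 of 14 core genes, 12 of 17 genes of the 19S particle, 3 of 4 activators and 3 of 7 chaperones, but 0 of 3 inducible genes, whose log2 fold changes were -0.27 (PSMB10), -0.18 (PSMB8) and -0.11 (PSMB9). The median log2 fold change of the 47 genes was 0.19, against 0.00 over all genes tested. Without TMM normalization, and with the library as a block, 2 genes were called lower.

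PSMA6 (ENSBTAG00000009683) changed the most in this step. Its level was 1.74 UMIs per 10000 in both libraries of cluster 8 and 2.37 in both of cluster 1, a log2 fold change of 0.48 ± 0.048 (SE; adjusted p = 0.00015, edgeR). PSMD7 (ENSBTAG00000018425), a lid subunit that pairs with the deubiquitinase PSMD14, went from 3.90 and 3.82 to 5.40 and 5.10 (log2 fold change 0.48 ± 0.052, adjusted p = 0.000265 by edgeR). The libraries of the clusters did not overlap for either gene. PSMD3 of the lid (0.42 on the log2 scale), the PA28 subunits PSME2 (0.39) and PSME3 (0.34), and PSMB3 of the core (0.38) followed.

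The comparison of cluster 3 with cluster 1 covers a step in which MYOG goes from 0.877 to 6.68 UMIs per 10000. Genes of the core, the base and the lid rose, with the largest median in the lid, while PSMB8 and PSMB9 fell. Of the 47 genes, 30 were called higher in cluster 3 and 5 lower, with 21.1% of all 11362 genes tested higher and 19.1% lower. Called higher were 7 of 8 lid genes, 7 of 9 base genes, 10 of 14 core genes and 5 of 7 chaperones. Called lower were PSMB8, PSMB9, PSME1, PSME2 and the core chaperone PSMG4. The median log2 fold change was 0.44 over the lid genes, 0.30 over the base genes, 0.22 over the core genes and 0.00 over all genes tested.

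PSMD7 led the genes that rose in cluster 3. Its levels of 8.33 and 8.08 UMIs per 10000 lay above the 5.40 and 5.10 of cluster 1 (log2 fold change 0.68 ± 0.050, adjusted p = 9.47e-05 by edgeR). The lid genes PSMD12 (0.53), PSMD3 (0.50) and PSMD14 (0.48), the last of which encodes the deubiquitinase, came next. PSMB8 (ENSBTAG00000003039) fell from 0.226 and 0.260 to 0.165 and 0.177, a log2 fold change of -0.47 ± 0.088 (adjusted p = 0.00488, edgeR). PSMB9 (ENSBTAG00000008954) fell from 0.0431 and 0.0337 to 0.0211 and 0.0225, on 74 and 56 UMIs in cluster 1 and 40 and 37 in cluster 3. Its log2 fold change was -0.78 ± 0.216 (adjusted p = 0.0253 by edgeR), and the call was lost with DESeq2 (adjusted p = 0.168). For both genes the libraries of cluster 3 lay below those of cluster 1.

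Between clusters 3 and 12, the more differentiated myocytes, the particle changed unevenly. Of the 47 genes, 10 were called higher in cluster 12 and 5 lower, close to the 18.2% higher and 15.6% lower of all 10811 genes tested, so the counts over the whole list did not stand apart from the background. The higher calls were 6 of 8 lid genes, the base ATPases PSMC4 and PSMC6, the core gene PSMA6 and PSME4, which encodes the activator PA200. The other 13 core genes had log2 fold changes from -0.16 to 0.15 and none was called. Called lower were PSMB8, PSMB9, PSME2, the chaperone PSMG1 and PSMC3IP (-0.81, a call lost with DESeq2 at an adjusted p of 0.216), which makes 4 proteasome genes.

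This comparison depended on the scaling. Higher genes made up 66.7% of the calls here, and 47.1% without TMM normalization, with 8 genes higher and 9 lower. The median log2 fold change of the 47 genes was 0.09 with TMM and -0.01 without, when the median over all genes was -0.12. Lid genes were called higher and none lower under both (6 and 4 of 8). With the library as a block, 20 genes were higher, among them all 8 lid genes, 6 of 9 base genes and 4 of 14 core genes, and 7 were lower. The share of all genes called was not computed with the block or without TMM normalization. These counts therefore have no background beside them.

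PSMD7 had the largest change among the genes called higher. It stood at 12.8 and 12.7 UMIs per 10000 in cluster 12 and 8.33 and 8.08 in cluster 3 (log2 fold change 0.73 ± 0.048, adjusted p = 2.47e-05 by edgeR), and its level in cluster 12 was above those of PSMA7 and PSMD8 in the same cells. PSMA6 was at 4.65 and 4.53 against 3.23 and 3.16 (0.62 ± 0.051, adjusted p = 7.81e-05 by edgeR). PSMC4 (ENSBTAG00000009414) was at 2.25 and 2.20 against 1.65 and 1.57 (0.56 ± 0.057, adjusted p = 0.000223 by edgeR). For each of these genes both libraries of cluster 12 exceeded all libraries of the other 14 clusters.

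PSMB8 and PSMB9 moved the other way, and PSMB10 did not. PSMB8 was at 0.0943 and 0.0847 UMIs per 10000 in cluster 12 against 0.165 and 0.177 in cluster 3 (log2 fold change -0.84 ± 0.127, adjusted p = 0.00179 by edgeR). PSMB9 had 6 and 4 UMIs in the libraries of cluster 12, and its log2 fold change of -1.33 ± 0.392 (adjusted p = 0.0337 by edgeR) was not called with DESeq2 (adjusted p = 0.262) or without the 8% of cells with the most UMIs (adjusted p = 0.0792). PSMB10 was at 0.174 and 0.217 in cluster 12 and 0.183 and 0.194 in cluster 3, so the libraries overlapped (log2 fold change 0.15, not called). Inducible UMIs per 100 UMIs of PSMB5, PSMB6 and PSMB7 were 2.97 ± 0.301 in cluster 12 and 3.71 ± 0.228 in cluster 3, the lowest of the 15 clusters, against 5.20 ± 0.0980 in cluster 1 and 6.46 ± 0.211 in cluster 8. PSMB5, PSMB6 and PSMB7 were not called in this step (log2 fold changes 0.03, 0.05 and 0.04, or -0.064, -0.045 and -0.056 without TMM normalization). PSME2 was called lower in cluster 12 (-0.29), a call lost with DESeq2 (adjusted p = 0.0677), while PSME1 was not called.

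**Figure D3:**
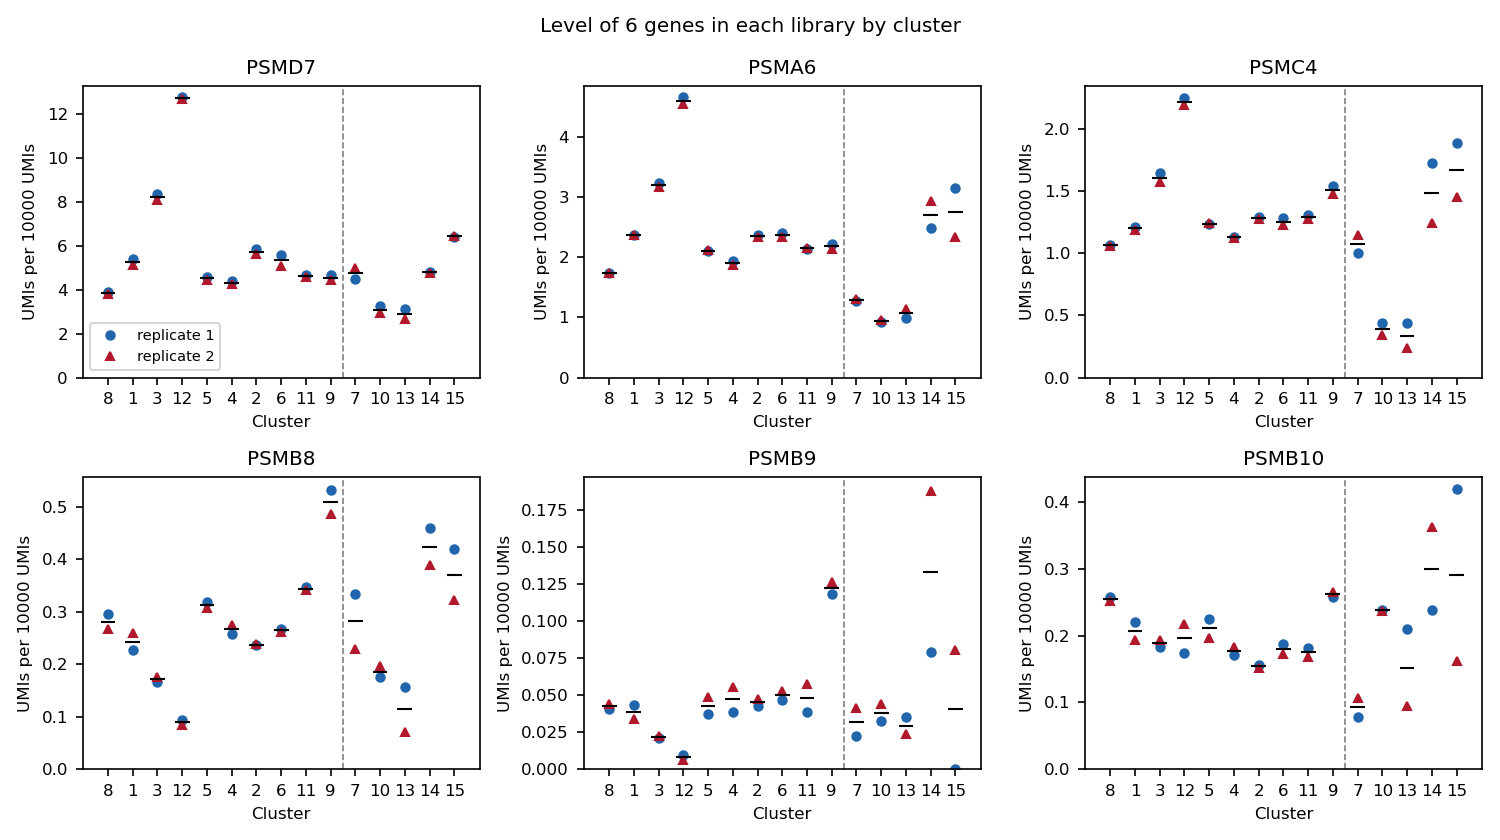
Level of 3 genes with high values in clusters 3 and 12 (upper panels) and of the 3 inducible beta genes (lower panels), in UMIs per 10000 UMIs of each cluster. Circles are replicate 1, triangles replicate 2 and black bars their mean, and clusters right of the dashed line have a median under 10000 UMIs per cell. PSMD7 reaches 12.7 in cluster 12, and PSMB8 has its lowest mean there, 0.0895, and its highest, 0.510, in cluster 9.

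On the other trajectory of the study, PAX3-enriched cluster 8 leads to PAX3-enriched cluster 5. Proteasome genes were again higher away from cluster 8. In cluster 5, 32 of the 47 genes were called higher and 0 lower, against 16.3% and 12.2% of all 10948 genes tested, and 31 were higher without PSMC3IP. They included 12 of 14 core genes, all 8 lid genes, 6 of 9 base genes and 4 of 7 chaperones, but 1 of 4 activators and 0 of 3 inducible genes. The median log2 fold change was 0.24 over the 47 genes and -0.01 over all genes tested, and 2 genes were called lower with the library as a block.

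Among proteasome genes the core chaperone PSMG2 changed the most, with 0.51 ± 0.066 on the log2 scale (adjusted p = 0.000961 by edgeR). PSMD3 (0.48), PSMA5 of the core (0.47), PSMD12 (0.41) and the base scaffold PSMD1 (0.40) came next. PSMA5 was at 2.26 and 2.17 UMIs per 10000 in cluster 5 and 1.54 and 1.66 in cluster 8. PSMC3IP, the gene outside the proteasome, had a larger change than all of these. It was at 0.240 and 0.265 in cluster 5 and 0.0691 and 0.0577 in cluster 8, a log2 fold change of 1.99 ± 0.132 (adjusted p = 4.26e-05 by edgeR). Its mean level was between 0.0306 and 0.0667 in clusters 1, 3, 8 and 12, which have the lowest sums of 10 S phase genes (2.60 to 4.90 UMIs per 10000), and 0.396 and 0.354 in clusters 6 and 11, which have the highest (22.0 and 22.3).

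Cluster 4 is rich in G2/M genes, with 51.9 UMIs per 10000 over 10 such genes against 7.62 in cluster 5. Of the 47 genes, 0 were called higher in cluster 4 than in cluster 5 and 13 lower, where 9.16% of all 11311 genes tested were higher and 7.28% lower. The lower calls were spread over the particle, with 5 core genes, 4 genes of the 19S particle, PSME1, PSMG1, PSMB8 and PSMC3IP, without which 12 remain. The changes were small, with a median log2 fold change of -0.11 over the 47 genes and -0.01 over all genes tested. PSMB4 of the core was at 3.51 and 3.34 in cluster 4 and 4.12 and 3.98 in cluster 5 (log2 fold change -0.27 ± 0.048, adjusted p = 0.0117 by edgeR), and PSMD8 fell by 0.25 on the log2 scale.

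The number of calls in this step moved with the method. It was 6 with DESeq2, 3 without a filter on low counts, 8 without the 8% of cells with the most UMIs and 28 with the library as a block, when 1 gene was also called higher. The share of all genes called was not computed for these alternatives. PSMB8 (-0.26, adjusted p = 0.0485 by edgeR) lost its call with DESeq2 (adjusted p = 0.302), without the filter, without the 8% of cells and without TMM normalization, and kept it with the block. PSMG1 (-0.32) and PSMB1 (-0.24) lost theirs without the filter (adjusted p = 0.0574 and 0.0518 by edgeR).

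Cluster 2 is as rich in G2/M genes as cluster 4 (53.2 UMIs per 10000) and has more MYOD1 (6.72 against 2.71). In all, 26 of the 47 genes were called higher in cluster 2 and 0 lower, against 14.5% and 15.7% of all 11561 genes tested. The calls included 9 of 14 core genes, 7 of 8 lid genes, 5 of 9 base genes, 3 of 7 chaperones and 2 of 4 activators. The median log2 fold change was 0.16, and -0.01 over all genes tested. With the library as a block 2 genes were called lower.

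PSMD7 again had the largest change, from 4.37 and 4.24 UMIs per 10000 in cluster 4 to 5.84 and 5.61 in cluster 2 (log2 fold change 0.40 ± 0.040, adjusted p = 0.000761 by edgeR). It was followed by PSMD3 (0.31), PSMG1 (0.31), PSMA6 (0.29), PSME3 (0.27) and PSMD12 (0.26). PSMD7, PSMD3 and PSMA6 were thus called higher in the step from cluster 8 to 1, from 1 to 3, from 3 to 12, from 8 to 5 and from 4 to 2, while in cluster 4 against cluster 5 PSMA6 was called lower (-0.18) and PSMD7 (-0.09) and PSMD3 (-0.07) were not called.

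**Figure D4:**
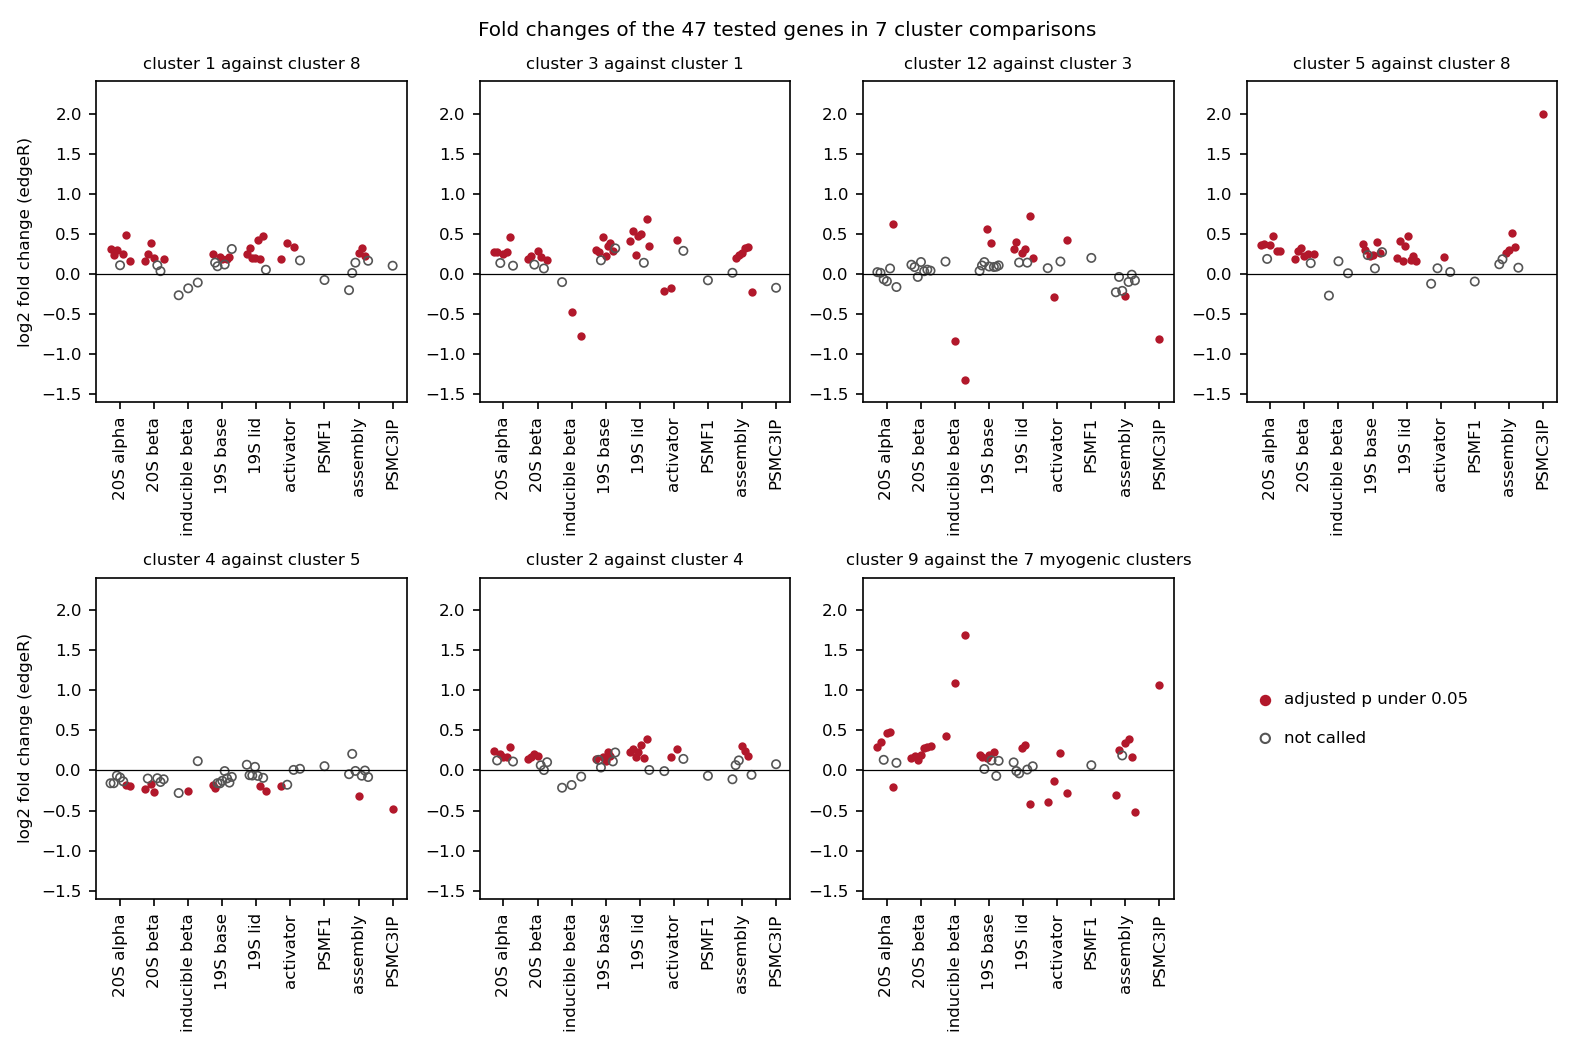
Log2 fold change of each of the 47 tested genes (points, grouped by role on the horizontal axis) in the 7 comparisons, positive where the cluster named first was higher. Filled points have an adjusted p under 0.05 in edgeR's quasi-likelihood test. PSMB8 and PSMB9 are negative in cluster 12 against cluster 3 (-0.84 and -1.33) and positive in cluster 9 against the 7 myogenic clusters (1.09 and 1.69).

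Cluster 9, the deeper of the study's FAP clusters, was compared with the cells of the 7 myogenic clusters 1, 2, 3, 4, 5, 8 and 12 together. Core beta genes and inducible genes were higher in cluster 9 than in these clusters pooled, and several genes high in myocytes were lower. Of the 47 genes, 27 were called higher in cluster 9 and 7 lower, but here 28.9% of all 12941 genes tested were higher and 27.6% lower. Called higher were all 7 constitutive beta genes, 4 of 7 alpha genes, all 3 inducible genes, 7 of 17 genes of the 19S particle, 4 of 7 chaperones, the activator PSME3 and PSMC3IP, without which 26 genes were higher. The lower genes were PSME1, PSME2 and PSME4, PSMD7 and PSMA6, and the chaperones PSMG4 and PSMD10. PSMD7 and PSMA6 were not lower than in every myogenic cluster. In the deposited averages PSMD7 was at 6.77 in cluster 9, against 5.75, 6.41 and 6.71 in clusters 8, 4 and 5. PSMA6 was at 3.25, against 2.59, 2.83 and 3.14. Both were higher in clusters 1, 2, 3 and 12 than in cluster 9. The core beta gene PSMB4 was at 6.94 in cluster 9 and 7.17 in cluster 12. PSMD10 was at 0.329 in cluster 9 and 0.283 in cluster 12. The call of PSME2 (-0.13) was lost with DESeq2 (adjusted p = 0.0731), among other settings.

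PSMB9 was at 0.118 and 0.126 UMIs per 10000 in cluster 9, and its mean in the 7 myogenic clusters was between 0.00807 (cluster 12) and 0.0471 (cluster 4). Its log2 fold change against these clusters together was 1.69 ± 0.107 (adjusted p = 0.000131 by edgeR). PSMB8 was at 0.533 and 0.487, above the 0.320 of the highest myogenic library, in cluster 5, with a log2 fold change of 1.09 ± 0.064 (adjusted p = 0.000103 by edgeR). PSMB10 was at 0.258 and 0.265 in cluster 9, and cluster 8, with 0.258 and 0.251, reached the same level (log2 fold change against all 7 clusters 0.43). Inducible UMIs per 100 UMIs of PSMB5, PSMB6 and PSMB7 were 7.31 and 7.25 in the libraries of cluster 9, the highest of the deeper clusters. Beside this, the leukocyte genes summed to 0.0526 UMIs per 10000 in cluster 9 and to 0.0169 to 0.0363 in the 7 myogenic clusters, with PTPRC and CD74 at 0 in cluster 9. Their part in the result was not tested.

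Over the deeper clusters the catalytic genes and their substitutes had these mean levels. PSMB5 ran from 4.36 (cluster 8) through 4.59 (cluster 1), 4.90 (4), 4.97 (12), 5.15 (5), 5.18 (2), 5.20 (3), 5.27 (6) and 5.64 (11) to 6.07 UMIs per 10000 (9). PSMB6 stayed between 2.61 (cluster 12) and 2.89 (cluster 5) in 9 clusters and reached 3.35 in cluster 9. PSMB7 ran from 1.97 in cluster 8 to 2.55 in cluster 11 and 2.85 in cluster 9. Cluster 9 was thus the highest for each of the 3 constitutive catalytic genes and for their 3 substitutes. PSMB8 had the order 0.0895 (cluster 12), 0.171 (3), 0.237 (2), 0.243 (1), 0.264 (6), 0.267 (4), 0.282 (8), 0.314 (5), 0.344 (11) and 0.510 (9), in which the libraries of clusters 2, 1, 6, 4 and 8 overlapped those of a neighbour. PSMB9 was between 0.0384 and 0.0499 in 7 of the 10 clusters, with clusters 12 (0.00807) and 3 (0.0218) below them and cluster 9 (0.122) above. PSMB10 lay between 0.154 (cluster 2) and 0.262 (cluster 9). For PSME1 the order was 1.47 (cluster 9), 1.61 (11), 1.69 (4), 1.70 (2), 1.77 (6), 1.90 (5 and 12), 1.93 (3), 2.07 (8) and 2.30 (1), and PSME2 was lowest in cluster 12 (0.671) and highest in cluster 1 (1.02).

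In cluster 9, PSME1 and PSME2 were called lower where the inducible subunits were called higher, whereas in cluster 3 against cluster 1 both were called lower together with PSMB8 and PSMB9. The call of PSME2 in cluster 9 was lost with DESeq2 (adjusted p = 0.0731), and by edgeR without TMM normalization (0.0563) and in 1 fit over 30 sums (0.0645). In the deposited averages PSME2 was at 1.17 in cluster 9, above clusters 12 (1.00) and 4 (1.12). The other myogenic clusters had 1.18 (cluster 8) to 1.51 (cluster 1). PSME1 was at 1.51 and 1.44 UMIs per 10000 in cluster 9, the lowest of the deeper clusters, and at 2.31 and 2.29 in cluster 1, the highest. PSME2 was highest in cluster 1 too (0.999 and 1.03). In the RefSeq annotation of the assembly ARS-UCD2.0, PSME1 and PSME2 have 1 coding gene, EMC9, between them, and PSMB8 and PSMB9 have TAP1. PSMG4 had its lowest and highest deeper cluster in the same places as PSME1, with 1.46 and 1.55 in cluster 9 and 2.24 and 2.43 in cluster 1, and its log2 fold change in cluster 9 was -0.52 ± 0.058 (adjusted p = 0.000998 by edgeR). Among core genes PSMA5 (0.47) and PSMA4 (0.47) had the largest rise in cluster 9, and PSMC3IP was also higher (1.06).

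Other genes of the ubiquitin-proteasome system were counted from lists of symbols, to be read against the shares of all genes called in the same comparison. Among 11 further components and assembly factors, 5 were called higher and 0 lower between cluster 3 and cluster 12, with 18.2% and 15.6% of all genes tested. They were led by ZFAND5, a proteasome-binding protein (0.87), and AKIRIN2, which brings proteasomes into the nucleus (0.72). UBE3C and the proteasome deubiquitinase USP14 (0.32) were also among them. The call of UBE3C was lost with DESeq2 (adjusted p = 0.18), and by edgeR without TMM normalization (0.132) and in 1 fit over 30 sums (0.0789). In the other comparisons 1 to 4 of the 11 were higher and 0 to 3 lower, with 9.16% to 28.9% of all genes higher and 7.28% to 27.6% lower. NFE2L1, the transcription factor that drives proteasome genes when proteolysis is short, was at 2.15 UMIs per 10000 in cluster 12 and 1.04 in cluster 3 (log2 fold change 1.15, adjusted p = 5.37e-05 by edgeR). VCP, an unfoldase that extracts ubiquitinated proteins, was called higher in 6 of the 7 comparisons and lower in cluster 4 against cluster 5, although its call in cluster 12 against cluster 3 was lost without TMM normalization (adjusted p = 0.24 by edgeR) and without the filter on low counts, and its call in cluster 4 was lost without the filter. Of 4 measured genes of proteasome gene regulation, 2 were higher in cluster 12 and 0 lower. In the other comparisons 0 to 2 of them were higher and 0 to 2 lower, with 1 higher and 2 lower in cluster 5 against cluster 8. Of 6 ubiquitin and activation genes at most 1 was higher and 3 lower in any comparison. Among 4 or 5 shuttle factors tested at most 3 were higher and 2 lower. Over the 7 comparisons 9.16% to 28.9% of all genes tested were higher and 7.28% to 27.6% lower.

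Muscle ubiquitin ligases had larger fold changes than the proteasome genes. All 8 tested were higher in cluster 12 than in cluster 3 (all genes 18.2%), with a median log2 fold change of 2.08. All 8 were lower in cluster 9 than in the myogenic clusters (all genes 27.6%), with a median of -3.31. The filter on low counts keeps a gene that is abundant on 1 side only. It passed 3 to 8 of the 9 listed ligases, depending on the comparison. A ligase that passed only through its high side could hardly be called the other way, so these counts can be partly set by the filter. TRIM54 (6.40), ASB2 (2.67) and TRIM55 (2.47) led in cluster 12, and KLHL40 rose in cluster 3 against cluster 1 (2.26) as well. FBXO32, the atrophy ligase atrogin-1, was lower in cluster 3 than in cluster 1 (-1.33) and higher in cluster 12 than in cluster 3 (1.06). In the remaining comparisons 1 to 4 of 3 to 7 tested ligases were higher and 0 to 2 lower. There, 9.16% to 21.1% of all genes tested were higher and 7.28% to 19.1% lower.

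Genes of interferon response and antigen presentation were examined because PSMB8 and PSMB9 belong to that system. In cluster 3 against cluster 1, 6 of 10 tested genes were lower and 1 higher (all genes 19.1% and 21.1%), with IRF1 at -3.08 and the class I gene BOLA at -0.74. In cluster 12 against cluster 3, 5 of 8 were lower and 0 higher (all genes 15.6% and 18.2%), with the peptide transporter TAP2 at -0.98 and B2M, the light chain of class I molecules, at -0.42 (not called in 1 fit over 30 sums, adjusted p = 0.0794 by edgeR). In cluster 9 against the myogenic clusters, 6 of 10 were higher and 1 lower (all genes 28.9% and 27.6%), led by IRF1 (1.68), TAP1 (1.31) and BOLA (0.89). The list was also lower in 2 comparisons in which 0 of 3 inducible genes were called, although all 3 had negative log2 fold changes there. In cluster 1 against cluster 8, 5 of 10 were lower and 0 higher (all genes 16.9% and 17.2%). Of these, TAP2 lost its call with DESeq2 (adjusted p = 0.0761) and TAPBP without the filter on low counts (adjusted p = 0.0596 by edgeR). In cluster 2 against cluster 4, 6 of 10 were lower and 0 higher (all genes 15.7% and 14.5%). ERAP1 and TAP2 lost their calls there with DESeq2 (adjusted p = 0.301 and 0.0543), among other settings. In cluster 5 against cluster 8, 1 was lower and 1 higher (all genes 12.2% and 16.3%). In cluster 4 against cluster 5, 1 was lower and 0 higher (all genes 7.28% and 9.16%).

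In the 5 shallow clusters part of the proteasome genes lay outside the range of the deeper ones, most of them in clusters 10 and 13, and here depth and cell type cannot be told apart. In clusters 10 and 13 the core genes summed to 22.0 ± 0.876 and 20.7 ± 0.312 UMIs per 10000 and the 19S genes to 21.3 ± 0.609 and 20.1 ± 0.233. Of 46 genes (all but PSMA8 and PSMC3IP), 35 were below both libraries of every deeper cluster in cluster 10 and 35 in cluster 13. How many of all genes lay outside that range was not computed, here or for the other shallow clusters. Such counts therefore do not show whether proteasome genes stand apart. The difference was uneven. PSMA7 was at 0.777 and 0.811 of its median level in the deeper clusters, while the other core genes had 0.182 (PSMB7 in cluster 13) to 0.480 (PSMA4 in cluster 10) of theirs. Core beta genes had 59.0 ± 1.63 and 50.6 ± 2.94 UMIs per 100 UMIs of alpha genes, against 96.0 to 105.5 in the deeper clusters. PSMA7 alone gave 8.89 of the 13.8 alpha UMIs per 10000 in cluster 10 and 9.28 of the 13.8 in cluster 13. The ratio without PSMA7 was not computed, so it does not show that beta genes as a class fell against the other alpha genes.

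Some genes in clusters 10 and 13 were at their usual level. PSMG4 was at 1.16 and 1.11 times its median in the deeper clusters, PSMG3 at 1.07 and 0.943, PSME3 at 1.18 and 1.21, PSME4 at 1.26 and 1.13 and PSMD3 at 0.846 and 1.03. Inducible UMIs per 100 UMIs of PSMB5, PSMB6 and PSMB7 were 12.7 and 13.3 in the libraries of cluster 10, where PSMB5, PSMB6 and PSMB7 were low, and the 3 inducible genes themselves were within the range of the deeper clusters.

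Cluster 7, which the study also called FAP, had another pattern, in which the 19S sum lay within the range of the deeper clusters and the core sum below it. The median gene of the 19S particle was at 0.893 of its median level in the deeper clusters, with 2 genes below and 3 above all of them. The median core gene was at 0.606. Its core genes summed to 29.1 ± 0.576 UMIs per 10000 and its 19S genes to 40.2 ± 0.375, so it had 138 ± 4.01 UMIs of the 19S particle per 100 of the core, the highest of the 15 clusters. Of the 46 genes, 22 were below and 4 above all deeper clusters, and 12 of the 22 were core genes. The 4 higher genes were PSME4 (2.82 times its median in the deeper clusters), PSMD3 (1.66), PSMD1 (1.33) and PSMC2. PSMG4 was at 0.257 and PSMD10 at 0.274 of theirs. The inducible genes summed to 0.406 ± 0.0407 UMIs per 10000 in cluster 7, against 0.894 ± 0.0224 in cluster 9. In cluster 7 the mRNAs of ribosomal proteins made up 9.02% of the UMIs, against 22.3% to 30.9% in the other 14 clusters, and their part in this pattern was not tested.

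In clusters 14 and 15 the core genes summed to 56.8 ± 0.938 and 61.6 ± 1.29 UMIs per 10000, above all deeper clusters. Of the 46 genes 12 were above both libraries of every deeper cluster in cluster 14 and 16 in cluster 15, with PSMC6 at 2.57 times its median in cluster 15. The inducible genes summed to 0.858 ± 0.115 in cluster 14, on 49 and 70 UMIs, near the 0.894 ± 0.0224 of cluster 9. The counts behind these values were small, since the libraries of cluster 15 held 0 and 1 UMI of PSMB9 and 4 each of PSMB8.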

How the data were processed

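Cell Ranger 3.0.2 was used by the authors to align reads to the bovine assembly ARS-UCD1.2, to count UMIs and to join both libraries after equalizing their mapped reads, which lowers the deeper library. The deposited counts per gene and cell are these joined UMI counts. The deposited signal table holds the authors' average of each gene in each of 15 clusters, with their fold changes and p-values, which were not used. No table of the cluster of each cell was used. The cluster of each of 19096 cells was deduced from the averages and the counts, and with it all 252240 averages were recovered (largest deviation from a whole UMI count 0.00011). The library of a cell was read from its barcode suffix, taken to number the libraries in replicate order. A swap would exchange the replicate names and leave the pairs of libraries as they are.

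UMIs were summed per library and cluster, and 2 sums were tested against 2 with edgeR 4.0.16 in R 4.3.3 (TMM, filterByExpr, quasi-likelihood F test, Benjamini-Hochberg over all genes tested, threshold 0.05). No cell was filtered out and no doublets were removed. The members and gene lists were chosen with earlier results of these data known. In each comparison, the genes given with full values were by rule the 6 called members with the largest absolute log2 fold change that moved the same way in both libraries. PSMB5 to PSMB10, PSME1 and PSME2 were described by level over the clusters, and up to 3 genes of each other list were named by the same rule. Other genes were chosen after their values were seen. Some genes of the lists are not reported here by name. The split of clusters at a median of 10000 UMIs per cell was also chosen after seeing the data. Alternatives were DESeq2 1.42.0, no TMM, no filter on low counts, 1 fit over 30 sums, leaving out cells or a library, and the library as a block. The log2 ratios of the libraries correlated between compared clusters at r = 0.396 to 0.621 over 8397 to 10144 genes, since each library spans all clusters, so the block pairs them. In simulated counts with 2 libraries per cluster, 48% to 71% of genes changed by 1.5-fold and 89% to 96% of those changed 3-fold were recovered, depending on the comparison. Unlike the data, the simulated counts had no library effect shared by the compared clusters. Symbols were matched to RefSeq genes of ARS-UCD2.0 for neighbours, with 48 of 48 found. Levels were computed with pandas 2.3.3 and numpy 2.4.6 and plotted with matplotlib 3.10.9.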

Additional observations from a re-analysis of the deposited data

How the results depend on the processing

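Tests with 2 libraries per cluster see the spread between preparations only, and members with few UMIs, such as PSMB9, rest on 4 to 168 UMIs per library of a tested cluster. With the library as a block (replicate block), 2 members were called lower in cluster 1 against 8, 2 in cluster 5 against 8, 2 in cluster 2 against 4 and 28 in cluster 4 against 5, where 1 was called higher, and 20 were called higher in cluster 12 against 3. The block ended no call of a named gene. DESeq2 left 3 members lower in cluster 3 against 1, 2 in cluster 12 against 3 and 6 in cluster 4 against 5. Without TMM, 2 were lower in cluster 1 against 8 and 9 in cluster 12 against 3, where the fold changes of PSME1 (-0.025), PSMB5 (-0.064), PSMB6 (-0.045) and PSMB7 (-0.056), none of them called, changed sign. In cluster 4 against 5, 3 were lower without the filter on low counts and 8 without the 8% of cells with the most UMIs. The cause was not tested. For these alternatives the share of all genes called was not computed, so their counts do not show whether proteasome genes stand apart. Over all named genes and the 6 settings with a test that could change them, 779 values kept their direction and side of the threshold, 69 lost the call and 4 changed sign. Leaving out cells under 2000 UMIs removed no cell from a tested cluster, so it tests nothing. DESeq2 ended 24 calls, no filter 14, 1 fit over 30 sums 12, no TMM 11 and fewer cells 8. Leaving out a library left no replicate to test, so it gave values only, and PSMB9 in cluster 12 against 3 was -1.57 without replicate 1 and -0.91 without replicate 2.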
